A study of Mus musculus with 11 samples.

Results

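Aqp8, S100g, Slc34a2, Hkdc1, Nxf7, Frzb, Pth1r and Sema6d are 8 mouse genes, of 39179 gene identifiers measured, that were chosen by their measured transcript levels: far lower in Mettl3 knockout (KO) embryoid bodies than in wild-type (WT) ones, or far higher in WT embryoid bodies than in WT embryonic stem cells. The choice used the KO and WT embryoid body libraries and the WT stem cell libraries, and it had no stated threshold. Values in those contrasts therefore describe the genes and are given without a test. The KO stem cell libraries took no part in the choice, but any comparison with WT stem cells uses values that did.

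Transcripts were measured by RNA-seq in C57BL/6 mouse cells of 4 groups. WT and KO embryonic stem cells (ESCs), with 3 libraries each lettered A, B and C, were kept in serum-free N2B27 medium with LIF, CHIR99021 at 1 to 3 µM and PD0325901 at 1 µM, a mixture that holds them in the naive state. WT and KO embryoid bodies (EBs), with 2 libraries each lettered A and B, were aggregates grown on non-adherent plates in medium with serum for 8 to 21 days, with the day of each library not given in the sources used here. Mettl3 encodes the enzyme subunit that places N6-methyladenosine on mRNA, and the KO is described at the level of the cell line, so whether the replicates of a genotype came from more than 1 clone is not given in the sources used here.

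Embryoid bodies form an outer layer of primitive endoderm that matures into visceral endoderm, an absorptive and secretory epithelium, and into parietal endoderm, which lays down basement membrane. Several of the 8 genes encode parts that absorptive epithelia use: a water channel (Aqp8), a calcium-binding protein of vitamin D responsive cells (S100g, calbindin-D9k), a sodium-dependent phosphate transporter (Slc34a2) and a hexokinase family member (Hkdc1). Pth1r, the receptor for parathyroid hormone and parathyroid hormone-related protein, is a known product of early endoderm, where it responds to the latter hormone. Frzb is a secreted antagonist of Wnt ligands, Sema6d is a membrane-bound semaphorin that signals through plexins, and Nxf7 belongs to the family of mRNA export factors.

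The genes lie apart from each other in the genome (GRCm38, GENCODE M21, all protein-coding). Aqp8 is at chr7:123462291-123468004 on the + strand, Slc34a2 at chr5:53038081-53071664 (+), Hkdc1 at chr10:62383137-62422491 (-) and Pth1r at chr9:110722085-110747145 (-). S100g and Nxf7 are both on the X chromosome, at chrX:162961992-162964599 (-) and chrX:135579555-135598777 (-). Frzb and Sema6d are both on chromosome 2, at chr2:80411970-80447625 (-) and chr2:124089969-124667770 (+). Of the 8, only Pth1r had exon bases that overlap another annotated gene, 3.25% of them, over Myl3 on the other strand. The library kit does not keep strand, so reads in that stretch cannot be told apart from those of Myl3.

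The promoters of the 8 genes were matched in RefSeq (GRCm38.p6), which gave 12 windows of 300 bases, from 250 bases before each start to 50 after. They were searched on both strands for AGATAA and TGATAA (bound by GATA factors), GTTAAT (a half-site of HNF1 factors), ATTGTT (bound by SOX factors) and TATAAA (the TATA box). The windows of 3 genes are printed because they show the range found: none of the motifs for Aqp8, a TATA box and a SOX-type match for S100g, and a GATA-type match for Nxf7. They stand for chr7:123462044-123462343 (+), chrX:162964550-162964849 (-) and chrX:135598732-135599031 (-), each read 5′ to 3′ on the gene's strand, with matches in capitals.
Aqp8: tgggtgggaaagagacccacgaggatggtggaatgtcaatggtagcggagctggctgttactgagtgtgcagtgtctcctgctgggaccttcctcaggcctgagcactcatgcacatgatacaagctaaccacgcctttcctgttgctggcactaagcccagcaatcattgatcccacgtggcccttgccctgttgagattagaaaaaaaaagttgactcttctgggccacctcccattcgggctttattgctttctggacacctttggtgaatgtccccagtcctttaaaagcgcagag
S100g: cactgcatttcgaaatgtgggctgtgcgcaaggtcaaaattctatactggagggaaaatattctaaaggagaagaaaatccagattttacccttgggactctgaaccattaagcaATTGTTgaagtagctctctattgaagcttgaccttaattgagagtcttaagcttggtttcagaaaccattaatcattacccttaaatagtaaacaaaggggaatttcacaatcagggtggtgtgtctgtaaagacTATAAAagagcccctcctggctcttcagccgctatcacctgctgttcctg
Nxf7: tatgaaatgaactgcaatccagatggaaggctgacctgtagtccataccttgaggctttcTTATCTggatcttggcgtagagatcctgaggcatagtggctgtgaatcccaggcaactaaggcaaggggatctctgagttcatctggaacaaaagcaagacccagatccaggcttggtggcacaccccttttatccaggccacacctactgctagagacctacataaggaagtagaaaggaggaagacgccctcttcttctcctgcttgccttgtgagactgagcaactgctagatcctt
In S100g, TATAAA began at the RefSeq start itself and ATTGTT 135 bases before it. In Nxf7, AGATAA lies on the other strand, reads TTATCT in the printed window and began 190 bases before the start. A GATA-type match was present in 3 of the 12 windows, from 2 genes (Nxf7 and Sema6d), and in 18.6% of all 32851 windows. The 2 windows of Nxf7 overlap and hold the same match. ATTGTT and TATAAA, each found in 1 window, were in 10.7% and 13.6% of all windows, and GTTAAT, found in none of the 12, was in 7.10%. A match describes letters in the window and not a bound site.

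Reads assigned to genes numbered 8523027 to 15426894 in 8 of the 10 libraries, and 3026837 and 3075007 in the WT and KO ESC libraries lettered C. Those 2 libraries stood apart from the rest: their log2 values correlated with A and B of their own group at r = 0.653 to 0.692, while A and B of each ESC group correlated at 0.990. They were measured alongside a protein assay, per the series' design text. Mettl3 itself had 392 to 425 normalized counts in WT ESCs and 131 to 138 in KO ESCs, and 368 to 399 in WT EBs and 147 to 154 in KO EBs. Its level was lower in KO by 1.62 (SE 0.14) on the log2 scale in ESCs and by 1.34 (SE 0.17) in EBs (limma adjusted p = 0.0123 and 0.0143). These gene-level counts do not show which part of the gene was deleted.

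In WT EBs the means of the 8 genes ran from 152 (Frzb) to 1645 (Pth1r) normalized counts, and in each of the other 3 groups their levels were a small fraction of that. Their normalized counts (reads per gene divided by the authors' size factor of the library) added up to 5419 and 5618 in the WT EB libraries, 50.1 and 59.4 in the KO EB libraries, 26.4 to 44.3 in WT ESCs and 59.0 to 119 in KO ESCs. No read was found in KO EBs for 2 of the 8, Aqp8 and S100g, and the other 6 kept 1 to 89 reads there. A mean of 10 or more was reached by all 8 genes in WT EBs, by 2 in KO EBs (Pth1r and Sema6d), by 2 in KO ESCs (Aqp8 and Pth1r) and by 1 in WT ESCs (Aqp8). All 8 passed the filter on low values (10 libraries averaging at least 10), and they did so through WT EBs. In aggregates of mixed cells, fewer cells of a type and less RNA per cell cannot be told apart.

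**Figure D1:**
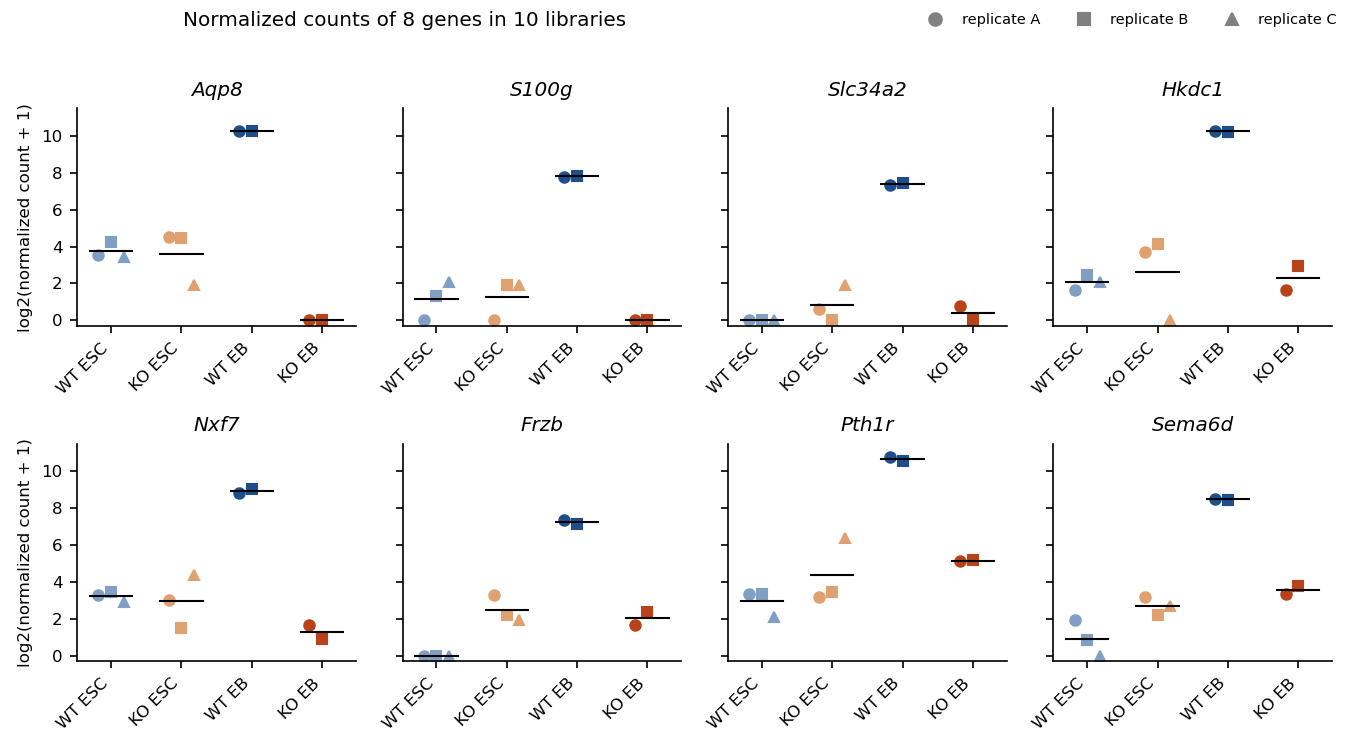
Log2(normalized count + 1) of the 8 genes in each of the 10 libraries, 1 panel per gene, with groups along the x axis, marker shape giving the replicate letter and a line at the group mean of the log2 values. The WT EB points lie above those of every other group in all 8 panels, Aqp8 and S100g sit at 0 in both KO EB libraries, and Pth1r and Sema6d keep a level above 0 there.

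Aqp8, an aquaporin of the plasma and inner membranes of epithelial cells, had the largest contrast of the 8 between KO and WT EBs, and the second lowest fold of WT EBs over WT ESCs. Its normalized counts were 1245 and 1253 in WT EBs (1249 ± 5.89, SD, n = 2) and 0 in both KO EB libraries, where 3 reads would be 2.12 and 2.55. It had 10.7, 18.3 and 9.88 in WT ESCs A, B and C, and 21.8, 20.9 and 2.78 in KO ESCs. The 2 ESC groups overlapped and both lay above KO EBs, so Aqp8 was lower in KO EBs than in the stem cells. Over pooled reads WT EBs were at least 1079.8-fold higher than KO EBs (3081 reads against 0, taking 3 reads in the group as the floor) and 89.6-fold higher than WT ESCs. Such floors and the intervals below cover counting error only.

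S100g, which buffers and ferries calcium through intestinal, uterine and placental epithelium, was next to absent outside WT EBs. It had 217 and 231 normalized counts in WT EBs (224 ± 9.81, SD, n = 2) and no read in KO EBs. In ESCs it had 3 reads over the WT libraries and 4 over the KO libraries, a range of 0 to 3.29 normalized counts in WT and 0 to 2.78 in KO. The 3 low groups overlapped at 0. WT EBs were at least 193-fold higher than KO EBs and 224-fold higher than WT ESCs (exact 95% counting interval 76.3 to 1091).

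Slc34a2, a phosphate carrier of the apical membrane of intestine and lung, had 162 and 174 normalized counts in WT EBs (168 ± 8.64, SD, n = 2). It had 1 read in KO EBs (0.71 and 0 normalized counts), no read in WT ESCs and 2 reads in KO ESCs (0.54, 0 and 2.78). Those 3 groups did not separate. The fold of WT over KO EBs was 434, with a counting interval of 77.5 to 17192 that shows how little 1 read fixes it, and WT EBs were at least 168-fold higher than WT ESCs.

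Hkdc1, a hexokinase domain protein that can phosphorylate glucose, was as abundant in WT EBs as Aqp8 by count, with 1258 and 1217 (1238 ± 28.9, SD, n = 2). In KO EBs it had 2.12 and 6.79, from 11 reads. In WT ESCs it had 2.15, 4.58 and 3.29, and in KO ESCs 12.0, 16.3 and 0. KO ESC libraries A and B were above all WT ESC libraries, and KO ESC library C was below them. WT EBs were 292-fold higher than KO EBs (163 to 586) and 373-fold higher than WT ESCs (203 to 779).

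Nxf7 had 450 and 528 normalized counts in WT EBs (489 ± 55.1, SD, n = 2) and 2.12 and 0.85 in KO EBs, from 4 reads. WT ESCs had 8.58, 9.92 and 6.59, and KO ESCs 7.07, 1.82 and 19.4. The KO EB libraries were below all WT ESC libraries and overlapped KO ESCs. The fold of WT over KO EBs was 315 (123 to 1160) and that of WT EBs over WT ESCs was 54.3 (37.1 to 82.7), the lowest of the 8 in the second contrast. The X chromosome, which holds Nxf7 and S100g, had a median difference between KO and WT of -0.15 in ESCs and -0.18 in EBs on the log2 scale over 559 genes. On chromosome 11, which holds none of the 8, the medians were -0.23 in ESCs and -0.44 in EBs.

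Frzb had 163 and 140 normalized counts in WT EBs (152 ± 16.2, SD, n = 2), 2.12 and 4.25 in KO EBs, and 8.71, 3.63 and 2.78 in KO ESCs A, B and C. It had no read in any WT ESC library, where 3 reads would be 2.15, 2.29 and 9.88. KO ESCs and KO EBs overlapped, and both lay above WT ESCs, although the value in KO ESC library C was a single read. WT EBs were 49.4-fold higher than KO EBs (24.8 to 115) and at least 153-fold higher than WT ESCs.

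Pth1r was the most abundant of the 8 by count in WT EBs and kept the highest level in KO EBs. It had 1768 and 1522 normalized counts in WT EBs (1645 ± 174, SD, n = 2) and 33.9 and 34.8 in KO EBs (34.4 ± 0.64, SD, n = 2), from 89 reads. WT ESCs had 9.30, 9.16 and 3.29, and KO ESCs 8.16, 9.99 and 83.3. A and B of both ESC groups lay close together, and KO ESC library C stood far above them, above KO EBs as well. WT EBs were 48.2-fold higher than KO EBs (39.0 to 60.1) and 191-fold higher than WT ESCs (130 to 293). Myl3, which overlaps Pth1r and encodes a cardiac myosin light chain, was itself lower in KO EBs: 808 and 813 normalized counts in WT EBs and 105 and 131 in KO EBs. Its part in the Pth1r values was not tested.

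Sema6d was the gene whose low groups were ordered. It had 356 and 354 normalized counts in WT EBs (355 ± 1.21, SD, n = 2), 9.18 and 12.7 in KO EBs, 8.16, 3.63 and 5.55 in KO ESCs and 2.86, 0.76 and 0 in WT ESCs. None of these groups overlapped another. WT EBs were 32.9-fold higher than KO EBs (22.6 to 49.7), the smallest fold of the 8, and 214-fold higher than WT ESCs (91.2 to 660).

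By level per kilobase of exon, the scale on which genes can be compared, Aqp8 led in WT EBs with 790 normalized counts per kb, above 95.5% of the 15781 genes tested. Pth1r followed with 562 (above 94.0%), S100g with 466 (93.0%), Hkdc1 with 241 (86.1%) and Nxf7 with 180 (81.4%). Frzb (46.9), Sema6d (33.6) and Slc34a2 (33.5) were near the middle of all tested genes, above 49.0%, 40.6% and 40.5% of them. S100g, the shortest of the 8, stood above Hkdc1 and Nxf7 per kb although it was below both by count.

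On the log2(normalized count + 1) scale, all 8 differences of KO against WT EBs were negative, from -10.29 (SE 0.88) for Aqp8 to -4.91 (SE 0.74) for Sema6d, with a median of -7.34 against -0.02 over all genes tested. The size of a difference over a group without reads depends on the pseudocount and the tool: for Aqp8 it ran from -13.47 (edgeR) to -7.97 (pseudocount of 5). As folds over pooled reads, with the 2 genes without a read in KO EBs at their bound, the median of WT over KO EBs was 243. From the lowest in the limma fit with a pseudocount of 1, Aqp8 ranked 1, Hkdc1 5, S100g 6, Nxf7 8 and Slc34a2 12 among the 15781 differences, while Pth1r ranked 48, Frzb 66 and Sema6d 81. All 8 had KO EB libraries below both WT EB libraries, as did 38.9% of all tested genes, and this separation was part of the choice. Of WT EBs over WT ESCs the differences ran from 5.72 (Nxf7) to 8.20 (Hkdc1), with a median of 7.32 against 0.09 over all genes (a median fold of 179.7, with Slc34a2 and Frzb at their bound), and all 8 groups were apart, as for 23.2% of all tested genes. The order of the genes differed between these 2 contrasts, which share the WT EB libraries: Aqp8 was the most extreme in the first, and ranked 28 from the highest in the second, where Hkdc1 ranked 4, Pth1r 8 and Sema6d 11.

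Between KO ESCs and KO EBs, the 8 genes did not have the large differences seen between WT ESCs and WT EBs. The differences of KO EBs from KO ESCs were negative for 6 genes and positive for 2, with a median of -0.46 against 0.06 over all genes. Aqp8 was lower in KO EBs, by -3.63 (SE 0.80) on the log2 scale, with no overlap, and KO ESCs were at least 16.8-fold higher over pooled reads (64 reads against 0). Sema6d was higher in KO EBs without overlap, by 0.86, and Pth1r differed by 0.79 with overlapping libraries. With the replicate letter as a block, the Sema6d difference was -0.0069. The KO EB libraries were part of the choice, so no test is given.

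**Figure D2:**
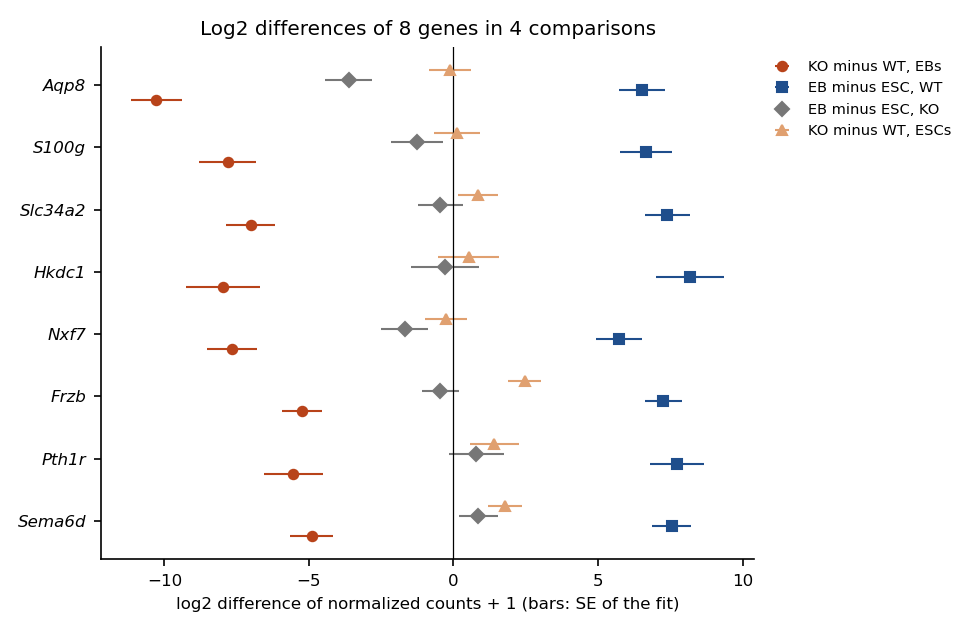
Log2 differences of normalized counts + 1 for the 8 genes (y axis) in 4 comparisons (symbols), with bars for the SE of the limma fit. KO minus WT in EBs lies between -10.29 and -4.91 and EB minus ESC in WT between 5.72 and 8.20, while the comparisons of KO EBs with KO ESCs and of KO with WT ESCs lie nearer to 0, apart from Aqp8 at -3.63 and Frzb at 2.47.

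Between KO and WT ESCs the 8 genes had low levels in both groups. The WT ESC libraries had a part in the choice of genes, and all 8 passed the filter on low values through WT EBs, so these differences are a description too and are given without a test. The median difference of KO from WT ESCs was 0.69 on the log2 scale against -0.02 over all genes, with 6 genes higher and 2 lower in KO, and a choice of genes that are low in WT ESCs favours that direction. In 2 of the 8, Frzb and Sema6d, all KO ESC libraries were above all WT ESC libraries, as for 9.23% of all tested genes, from which nothing is read.

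Frzb had the largest difference, 2.47 (SE 0.57), or at least 6.39-fold over pooled reads, 21 against 0. The KO library was higher for each letter, by 3.28, 2.21 and 1.92 for A, B and C, and without both C libraries the difference was 2.75. Sema6d differed by 1.78 (SE 0.60) or 3.83-fold over pooled reads (1.41 to 13.0), and was higher in KO for each letter, by 1.25, 1.39 and 2.71. The WT side of these values rested on 0 reads for Frzb and 5 for Sema6d.

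Hkdc1 differed by 0.53 (SE 1.06), with KO above WT by 2.04 and 1.64 for A and B and a difference of -2.10 for C, and by 1.84 without both C libraries. Pth1r differed by 1.41 (SE 0.84), and this rested on 1 library: the KO library was higher by 4.30 for letter C and differed by -0.17 and 0.11 for A and B, and without both C libraries the difference was -0.028. Aqp8 (-0.13, SE 0.72) differed by 0.96 and 0.18 for A and B and by -1.53 for C, and by 0.57 without both C libraries. S100g (0.12, SE 0.80) showed no shared direction over the letters. Nxf7 was lower in KO for A and B and higher for C, by 1.43, and Slc34a2 rested on 2 reads.

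**Figure D3:**
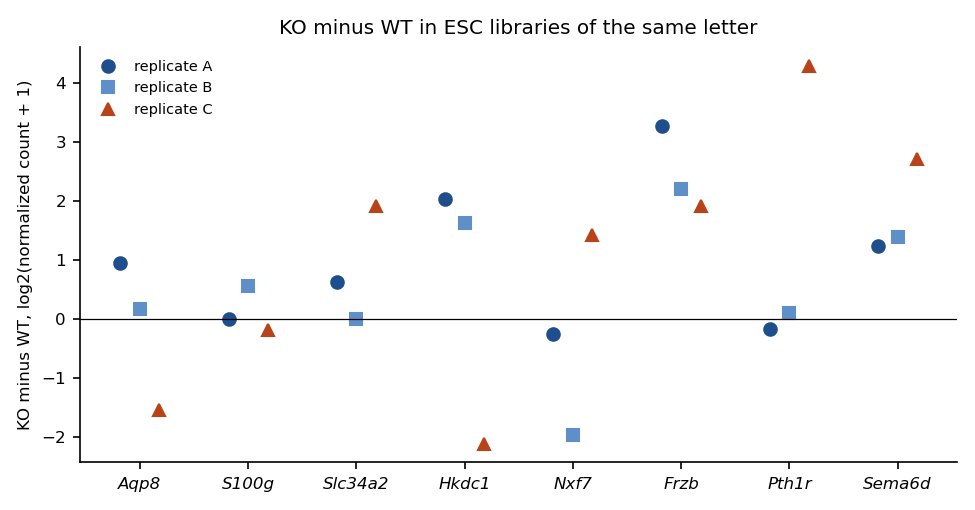
KO minus WT of log2(normalized count + 1) in ESCs for each of the 8 genes (x axis), 1 point for each replicate letter. Frzb and Sema6d have all 3 points above 0, while for Aqp8, Hkdc1, Nxf7 and Pth1r the point for letter C (triangle) lies on the other side of 0 or far from A and B.

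The relatives of the 8 genes were followed in 8 lists from textbook knowledge, with 85 genes tested and the 8 genes themselves left out. In KO against WT EBs, limma called 2 of the 85 (1 higher, 1 lower) against 1.84% of all genes tested, with 19 at an unadjusted p under 0.05, 3 called by edgeR and 13 by DESeq2. In WT EBs against WT ESCs it called 3 (all higher) against 2.48%, with 22 unadjusted, 5 by edgeR and 16 by DESeq2. In KO against WT ESCs it called 2 (1 higher, 1 lower), against 2.38%, with 17 unadjusted, 1 by edgeR and 15 by DESeq2. All p-values measure the spread between libraries as labelled, which may be technical. With the letter as a block these counts were 22, 13 and 28 (22.7%, 9.52% and 29.3% of all genes tested), and without both C libraries 54, 49 and 55 (51.9%, 46.1% and 55.2%). Over all 15781 genes tested, the counts at an unadjusted p under 0.05 in limma, by edgeR and by DESeq2 were 2189, 282 and 1552 in KO against WT EBs. They were 2287, 439 and 1525 in WT EBs against WT ESCs, and 2710, 335 and 1959 in KO against WT ESCs.

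Of the other water channels, 3 of 11 were tested and none was called by limma or edgeR in any of the 3 comparisons, while DESeq2 called Aqp3 in WT EBs against ESCs, the 1 gene at an unadjusted p under 0.05 in limma. Aqp3, an aquaglyceroporin and the most abundant of them, was lowest in WT EBs, the group in which Aqp8 was highest. It had 479 normalized counts per kb in WT ESCs, 663 in KO ESCs, 56.7 in WT EBs and 97.2 in KO EBs. Its differences, 0.77 between KO and WT EBs (limma adjusted p = 0.948) and -3.04 between WT EBs and ESCs (0.169), did not pass in limma. Aqp1 was at 5.37 per kb in WT EBs and 1.10 in KO EBs.

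Of the calcium and vitamin D list, 6 of 10 were tested and limma called 1, in ESCs. Rxra, the partner of the vitamin D receptor on DNA, rose from 238 ± 23.1 normalized counts in WT ESCs to 474 ± 55.6 in KO ESCs (SD, n = 3 each), by 0.99 (SE 0.15, limma adjusted p = 0.0294). DESeq2 called Rxra in all 3 comparisons and Vdr in WT EBs against ESCs. The calcium pump gene Atp2b1, the most abundant of the list that did not pass, was at 991 normalized counts in WT EBs against 822 in KO EBs (difference -0.27, limma adjusted p = 1.0). The vitamin D receptor gene Vdr was low throughout, at 29.9 and 22.4 normalized counts in WT EBs and 7.06 and 16.1 in KO EBs. Trpv6, the apical calcium channel that works upstream of calbindin in gut, had 3.06 and 6.03 in WT EBs, and Calb1 had 1.53 and 0.

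Among phosphate carriers, 4 of 8 were tested and none was called by limma, edgeR or DESeq2, with 1 at an unadjusted p under 0.05 in limma, in KO against WT EBs. Slc34a2 at 33.5 per kb in WT EBs stood beside the housekeeping carrier Slc20a1 at 398, Slc20a2 at 84.7, Slc34a3 at 10.7 and the kidney carrier Slc34a1 at 0.59. Slc20a1 was at 501 per kb in KO EBs (difference 0.33, limma adjusted p = 0.973) and Slc34a3 at 24.9. Slc34a2 had both KO EB libraries under 1 normalized count and both WT EB libraries over 100, a contrast that was part of its choice.

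Of the hexokinase and glucose entry list, 9 of 11 were tested and limma and edgeR called none. At an unadjusted p under 0.05 limma had 3 in KO against WT ESCs, 1 in EBs and 0 between WT EBs and ESCs. DESeq2 called Hk2 and Slc2a3 in ESCs and Slc2a3 in EBs, and limma with the block called 6, 4 and 3. Hk2, the main hexokinase of these cells, had 855 normalized counts per kb in WT ESCs, 585 in KO ESCs, 637 in WT EBs and 499.9 in KO EBs, and Hk1 had 104, 151, 100.4 and 121. Hkdc1 was above Hk1 in WT EBs, with 241 against 100.4 per kb, and was at 0.87 per kb in KO EBs. The glucose transporter Slc2a3, the most abundant gene of the list, had a difference of -0.56 on the log2 scale between KO and WT EBs (limma adjusted p = 0.172, 0.00575 with the block, DESeq2 adjusted p = 0.00077). The block calls in EBs were 1 higher and 3 lower in KO. Among the lower ones was Slc2a1, named after its values were seen, with 5819 and 5117 normalized counts in WT EBs and 1542 and 1328 in KO EBs.

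In the mRNA export list, 19 of 20 symbols were in the table, 18 were tested and limma and edgeR called none. At an unadjusted p under 0.05 limma had 4 in KO against WT ESCs, 4 in EBs and 0 between WT EBs and ESCs, and DESeq2 called 3, 2 and 0, with Poldip3 in both of the first. Mcm3ap, the most abundant of the list, was at 2522 normalized counts in WT EBs against 1866 in KO EBs (difference -0.43, limma adjusted p = 0.927). Nxf1, the general export receptor, had 262, 202, 137 and 121 normalized counts per kb in WT ESCs, KO ESCs, WT EBs and KO EBs. Nxf7 at 180 per kb was thus at the level of Nxf1 in WT EBs. Nxf3, another X-linked relative, had 13.0 and 12.1 normalized counts in WT EBs and 2.12 and 0 in KO EBs, and Nxf2 had at most 6.59 in any library.

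Of the secreted Wnt inhibitors other than Frzb, 7 of 13 were tested and limma, edgeR and DESeq2 called the same 2 between KO and WT EBs, in opposite directions. Sfrp1 rose from a WT level of 483 ± 43.4 normalized counts to 1409 ± 68.4 in the KO (SD, n = 2 each), by 1.54 (SE 0.29, limma adjusted p = 0.0449, 0.0562 under TMM scaling). Dkk1, named after its values were seen, fell from 73.9 ± 7.11 to 0.71 ± 1.00, a difference of -5.59 (SE 0.99, limma adjusted p = 0.0382). Outside WT EBs Dkk1 had at most 6.59 normalized counts. It passed the filter on low values through WT EBs, so nothing is read from its call. Sfrp2 and Sfrp4 had values on the side of Sfrp1, with 14.8 and 11.46 per kb in WT EBs and 25.4 and 26.2 in KO EBs. Notum, a Wnt-inactivating enzyme and the most abundant of those that did not pass, was on that side as well, at 96.5 normalized counts in WT EBs against 250.2 in KO EBs (difference 1.36, limma adjusted p = 0.229). Dkk3, with 119 and 67.4, and Frzb were on the side of Dkk1.

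Around Pth1r, 11 of 15 genes of parathyroid hormone signalling were tested and limma and edgeR called none. At an unadjusted p under 0.05 limma had 1 in KO against WT ESCs, 2 in EBs and 3 between WT EBs and ESCs, and DESeq2 called 1, 1 and 3. The ligand genes were nearly silent: Pthlh had reads in 1 WT EB library and 1 KO EB library (2.30 and 0.71 normalized counts) and Pth in 1 WT EB library (0.86). Pth2r, the related receptor, was at 3.83 and 0.86 in WT EBs. Gnas, which encodes the G protein subunit that Pth1r acts through, had 2038 ± 222 normalized counts in the WT and 1264 ± 61.7 in the KO aggregates (SD, n = 2 each), a difference of -0.69 (limma adjusted p = 0.237, 0.0201 with the block).

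The semaphorins and their receptors had 27 of 30 genes tested. From WT ESCs to WT EBs, 3 semaphorins rose: Sema3g by 6.27 (SE 0.75, limma adjusted p = 0.00895), from 1.72 to 179 normalized counts, Sema6a by 4.07 (adjusted p = 0.0314), from 7.78 to 125, and Sema4c by 2.76 (adjusted p = 0.0304), from 40.1 to 258. Between KO and WT EBs limma called none of the list (7 at an unadjusted p under 0.05), edgeR called Sema3g and DESeq2 called 6 with Sema3g and Sema6a among them. In KO EBs Sema3g had 17.7 and 10.2 normalized counts and Sema6a 20.5 and 17.8. Outside WT EBs Sema3g had at most 17.7 in any library. It passed the filter on low values through WT EBs, so nothing is read from its calls. Sema6a, the nearest relative of Sema6d in this list by class, had 53.3, 39.96 and 128 in KO ESCs and 7.87, 2.29 and 13.2 in WT ESCs, again without overlap and with KO higher. The plexin gene Plxnb2, the most abundant of the list, had 2730 normalized counts in WT EBs, 1134 in KO EBs and 1593 in WT ESCs, with differences of -1.27 between KO and WT EBs (limma adjusted p = 0.374) and 0.79 between WT EBs and ESCs (0.574). Sema6b and Sema6c, the other members of that class, had 14.2 and 10.2 per kb in WT EBs and 18.4 and 23.96 in KO EBs.

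Leaving out single libraries ended the 7 calls named for these relatives in some fits. It ended calls over all genes tested as well, so this is not particular to the 7. When each library was left out in turn, Sema3g passed in 8 of 10 fits, not passing without WT EB library A or without B. Each of the other 6 passed in 2 of 10, those without a C library, and the adjusted p reached 0.152 (Rxra) to 0.353 (Sema4c). With 1 library left in a group, that library is assumed to vary like the other groups.

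**Figure D4:**
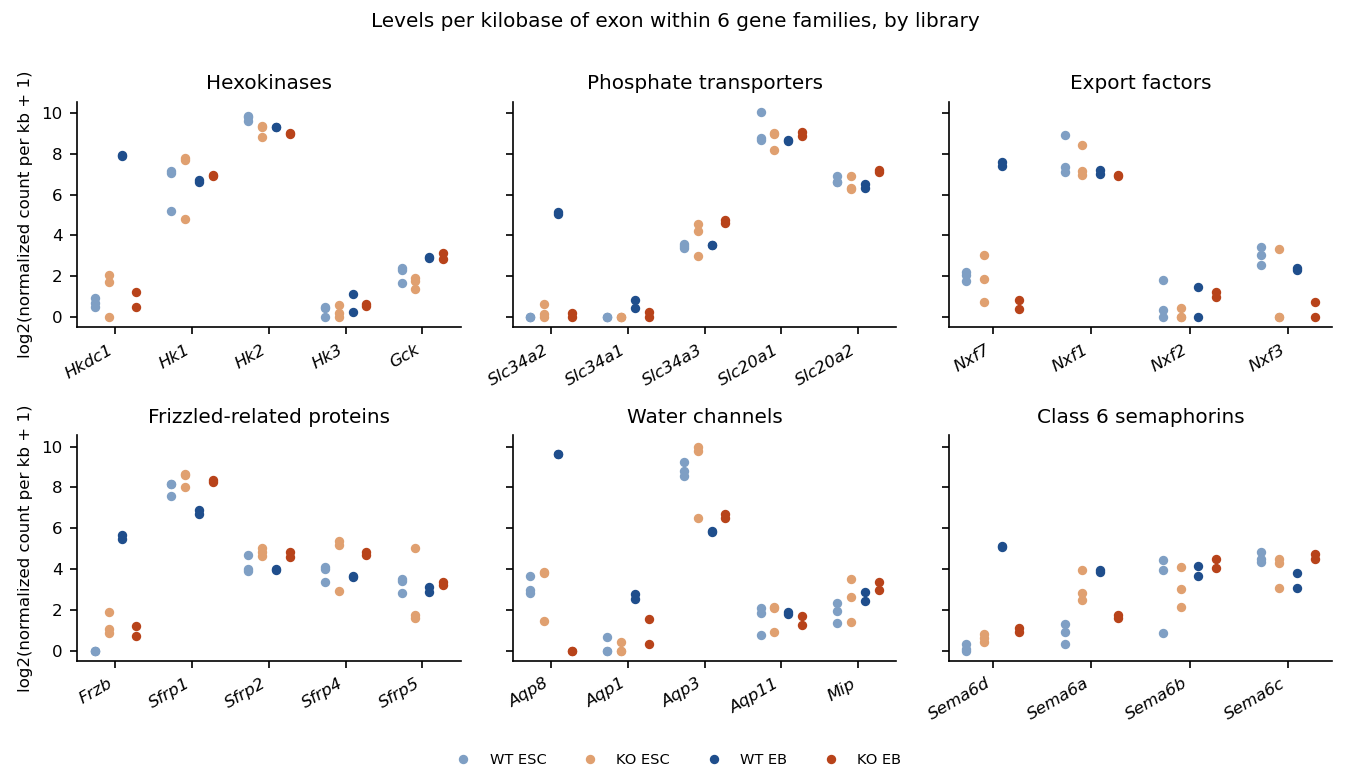
Log2(normalized count per kb of exon + 1) of the 6 of the 8 genes with close relatives, beside those relatives, 1 point per library coloured by group. Hkdc1, Slc34a2, Nxf7, Frzb, Aqp8 and Sema6d (first gene of each panel) have WT EB points far above their own other points, while relatives such as Hk2, Slc20a1 and Nxf1 keep high levels in all 4 groups and Sfrp1 is lowest in WT EBs.

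The 3 lists of endoderm markers were high in WT EBs and low in KO EBs, as the 8 genes were. Among the other 8 lists, some sums were lower in KO EBs and some higher. Markers of primitive endoderm (7 genes, such as Gata4, Gata6 and Sox17) summed to 4487 and 5177 normalized counts in WT EBs and 147 and 162 in KO EBs, with 7 of 7 lower in both KO libraries. Over all genes tested, 38.9% were lower in both KO libraries and 36.0% higher in both. Markers of visceral endoderm (10 genes) summed to 4169 and 4573 in WT EBs and 118 and 124 in KO EBs, with 10 of 10 lower and Afp and Apoa4 without a read in KO EBs. Markers of parietal endoderm (8 genes, such as Lama1 and Sparc) summed to 167543 and 168947 in WT EBs and 5432 and 5506 in KO EBs, with 8 of 8 lower. Their part in the values of the 8 genes was not tested.

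The tissues in which some of the 8 are best known showed smaller marker sums. Markers of absorptive gut epithelium (8 genes) summed to 212 and 214 normalized counts in WT EBs, less than S100g alone, and to 65.0 and 79.0 in KO EBs, with 5 of 8 lower (38.9% over all genes) and Fabp1 and Cdx2 without a read in KO EBs. Markers of cartilage and bone (7 genes), where Pth1r and Frzb are well known, summed to 319 and 328 in WT EBs and 497 and 530 in KO EBs, with none lower in both KO libraries and 3 higher. Markers of cardiac muscle (6 genes) summed to 345 and 410 in WT EBs and 73.9 and 89.7 in KO EBs, with 3 of 6 lower and 1 higher. Most of the WT EB sum was Myh7, with a mean of 273 there and 1.41 in KO EBs. Actc1 had 2 reads in WT EBs and no read in KO EBs. Pluripotency markers (8 genes) went the other way, with 17281 and 19042 in WT EBs and 26227 and 29883 in KO EBs, and 7 of 8 higher in both KO libraries. Sums for trophoblast (909 to 998 in WT EBs, 524 to 619 in KO EBs) and fibroblasts (3009 to 3038, 1998 to 2030) were lower in KO EBs, and those for neural cells (557 to 643, 716 to 896) higher. The 6 neural genes had no shared direction, with 3 lower in both KO libraries and 3 higher (38.9% and 36.0% over all genes). Of the trophoblast genes 5 of 8 were lower and 1 higher, and of the fibroblast genes 6 of 7 and 1. Sums for blood and endothelium (1421 to 1481, 1317 to 1369) were a little lower and mostly Pecam1, with means of 1360 and 1307. In that list 3 of 7 genes were lower in both KO libraries, Cdh5 among them (means of 51.4 and 0.42), and 1 was higher. For these lists too, their part in the values of the 8 genes was not tested.

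**Figure D5:**
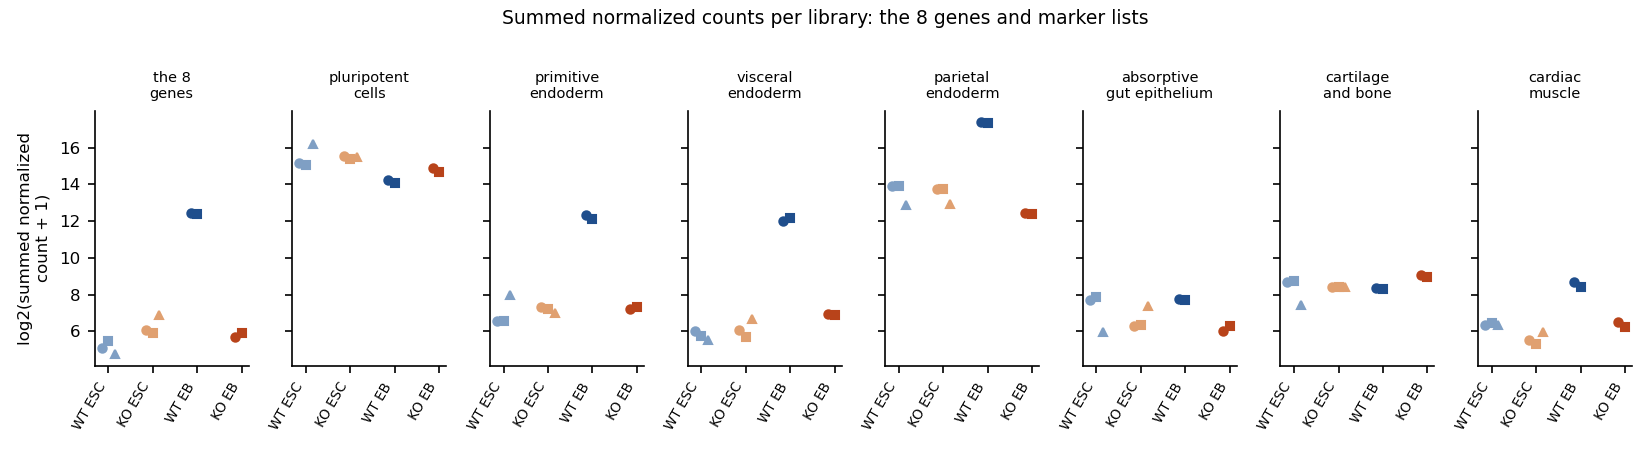
Log2(summed normalized count + 1) per library for the 8 genes and for 7 marker lists, with groups along the x axis (circle, square and triangle for replicates A, B and C). The 8 genes together and the primitive, visceral and parietal endoderm lists are highest in the WT EB libraries, as is the cardiac muscle list. The cartilage and bone list is highest in KO EBs.

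Within the 8, all 28 pairs had positive correlations of log2 values over the 10 libraries, from r = 0.673 to 0.967 with a median of 0.887, and from 0.733 to 0.974 without both C libraries. All pairs share the high WT EB libraries, which fixes the sign, so these values describe and do not test. The genes most like each of the 8 among all tested, by r over the same 10 libraries, included several named endoderm genes. Aqp8 was closest to Lama1 (0.993), which encodes a basement membrane laminin, Hkdc1 to Sox17 (0.987), an endoderm transcription factor, and Sema6d to Apoa1 (0.991), an apolipoprotein. Slc34a2 was closest to Gkn1 (0.998), with Ihh, the Indian hedgehog ligand, among its 3 nearest (0.982), and Nxf7 to Nrk (0.988), which is also X-linked. S100g was closest to Sel1l3 (0.974), Frzb to Pxdn (0.984), a peroxidase of basement membrane, and Pth1r to Wfdc1 (0.979), which was also among the 3 nearest of Sema6d (0.980).

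The next places went to Muc13 and Flrt3 for Aqp8 (0.969 and 0.968), Arsi and Txndc12 for S100g (0.974 and 0.965), Hs3st1 for Slc34a2 (0.986), and Ptk6 and Plod2 for Hkdc1 (0.983 and 0.980). For Nxf7 they went to Tpm4 and Clic1 (0.987 and 0.976), for Frzb to Mapkapk2 and Rab33b (0.974 and 0.971), for Pth1r to Pla2g12b and Tmed3 (0.977 and 0.975), and for Sema6d to Snx9 (0.985). These neighbours differed in how much transcript remained in KO EBs: Lama1 had mean normalized counts of 38107 in WT EBs and 181 in KO EBs and Gkn1 112 and 0.35, while Rab33b had 153 and 106 and Snx9 421 and 266. None of the 8 was among the 3 nearest genes of another.

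Mettl3 modifies adenosines in a short context of which GGACT is a well-known form, so its occurrences were counted on the sense strand of the longest protein-coding transcript of each gene (GENCODE M21). No methylation was measured in these libraries. Pth1r had 5 in 2307 bases, or 2.17 per kb, more than 91.3% of the 13363 tested genes with such a transcript, and S100g had none in 480 bases. The sites of Pth1r, the densest of the 8, are printed with 10 bases on each side and the motif in capitals, beginning at bases 1326, 1862, 1956, 2213 and 2279 of the transcript.
Pth1r site 1: tctggtggagGGACTgtacttacac
Pth1r site 2: cactggcattGGACTtcaagcgtaa
Pth1r site 3: cccccgtgcaGGACTcagccttccc
Pth1r site 4: tcaaggggctGGACTgctggcatgg
Pth1r site 5: tgtctattcaGGACTggaccaggaa
The others ranged from 0.85 per kb in Hkdc1 to 1.91 in Frzb, with 1.44 in Slc34a2, 1.34 in Aqp8 and in Nxf7 and 1.24 in Sema6d. The median over all genes was 1.06 (quartiles 0.64 and 1.53), and 6 of the 8 lay above it.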

How the data were processed

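RNA-seq libraries, described by the labels as poly(A) and made with a TruSeq RNA v2 kit that does not keep strand, were analysed in 10 of 11 samples. The fibroblast sample was not analysed here. Per the submitters' processing notes, the authors' tools were TopHat2 2.0.10, Bowtie, HTSeq 0.6.0, CASAVA 1.8.2 and DESeq, with the build mm10 and no roles stated. The annotation release, strand setting and filters are not given in the sources used here. The deposited table holds a normalized signal, which its name and values describe as the authors' read counts per gene, each divided by 1 DESeq size factor of the library. Whole reads were recovered, since 100% of a library's values were multiples of its lowest nonzero value within a tolerance of 0.01. The table had 39179 identifiers, of which 37693 had a symbol in GENCODE M21, and 5 summary lines were left out. Those lines held reads in no gene (34.0% to 38.8% of records), alignments that were not unique (28.7% to 46.1%) and ambiguous reads (0.415% to 0.941%). A count of 3 reads, the floor, was 8.33 and 9.88 normalized counts in the 2 C libraries and 1.63 to 2.72 in the other 8, and intervals are exact at 95%.

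After adding a pseudocount of 1, values were log2-transformed. The 15781 genes with a mean of 10 or more were fitted with limma 3.58.1 (R 4.3.3) as 4 group means with trended, robust variances and 6 residual degrees of freedom. Tests were two-sided with Benjamini-Hochberg adjustment over all genes, at 0.05. Alternatives were edgeR 4.0.16 and DESeq2 1.42.0 on the recovered reads, TMM scaling, other pseudocounts and filters, the replicate block, only the groups compared, and fits without single libraries or both C libraries. The fit was tested on simulated data.

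The genes, lists and tests were chosen with earlier results of these data known. A test of the 8 genes between KO and WT ESCs was planned and is not reported, since WT ESC values had a part in choosing them. Named were all 8 genes, Mettl3, and per list and comparison up to 3 called genes per direction (1 in ESCs) whose higher group averaged at least 100. The most abundant gene of each list that did not pass was added, except in ESCs, as were the 3 genes most like each of the 8, leaving out model names. Deviations from the group mean correlated at r = 0.845, 0.828 and 0.858 for ESC libraries that share a letter across genotypes. This is above the bound of 0.1, so the letters were taken to pair the ESC libraries. A with B gave 0.809 and 0.812 and C with either gave -0.836 to -0.846, so the pairing rests mostly on C. EBs gave 0.369 for A and for B, which are the same value by construction where a group has 2 libraries. Figures were drawn with matplotlib 3.10.9.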

Additional observations from a re-analysis of the deposited data

Results flagged for a closer look

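Sema5b, a semaphorin of another class than Sema6d, had KO effects of opposite sign in ESCs and EBs. It fell from 148 ± 25.7 normalized counts in WT ESCs to 66.7 ± 7.39 in KO ESCs (SD, n = 3 each), a difference of -1.13 on the log2 scale (limma adjusted p = 0.0461, 0.0551 in edgeR). In EBs it had 91.9 and 91.2 in WT and 219 and 185 in KO, a difference of 1.13. The difference between these effects was 2.26 (SE 0.34, limma adjusted p = 0.0470, 0.00971 with the replicate block). It was called for 75 of 15781 genes and for 1 of the 15 named relatives.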

How the results depend on the processing

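Across all genes, the number called in KO against WT ESCs (376) was 45 with no filter on low values, 1959 with DESeq2, 4627 with the replicate block and 8715 without both C libraries. It was 0 with only the 2 groups compared (1603 at an unadjusted p under 0.05 in limma), and 8499 with these 2 groups without both C libraries, chosen after seeing the data. In KO against WT EBs (290) it was 1351 with no filter, 1552 with DESeq2, 3578 with the replicate block, 8196 without both C libraries and 7768 with the 2 groups. In WT EBs against ESCs (392) it was 1655, 1525, 1503 and 7278, and 60 with the 2 groups, or 6645 without C. Leaving out each library in turn gave 0 to 2177, 0 to 1162 and 5 to 1206 calls. The other pseudocounts, a mean of 50 or more, TMM and edgeR kept the 3 counts within 1.5 times. The block ended none of the 7 calls named for relatives. With only the 2 groups compared, Rxra, Sema5b, Sema3g, Sema6a and Sema4c did not pass. Single settings also ended calls: no filter for Rxra and Sema5b, a mean of 50 or more for Sema6a, and a pseudocount of 0.5 for Dkk1. Sfrp1 under TMM scaling and Sema5b in edgeR did not pass either. For the 8 genes, all 157 alternative values in KO against WT EBs and all 165 in WT EBs against ESCs kept their sign. Their choice for large differences in these contrasts favours a kept sign, so nothing is read from it. Of these values, 23 and 25 moved by more than the spread between replicates. The widest ranges were for genes at or near 0 reads: Aqp8 from -13.47 to -7.97 and S100g from -10.99 to -5.52 in the first, Frzb from 4.97 to 10.43 and Slc34a2 from 5.11 to 10.58 in the second. In KO against WT ESCs 14 of 165 changed sign. Aqp8 gave 0.33 in edgeR, 0.32 in DESeq2, 0.57 without both C libraries (also with 2 groups) and -0.57 to 0.72 when single libraries were left out. The same ranges were -0.45 to 0.76 for S100g, -0.23 to 1.83 for Hkdc1 and -0.96 to 0.47 for Nxf7, and Pth1r gave -0.028 without both C libraries (also with 2 groups). In KO EBs against KO ESCs 7 of 165 changed sign: Slc34a2 gave 0.072 without both C libraries (also with 2 groups) and -0.89 to 0.072 without single libraries, Hkdc1 -1.61 to 0.45 without single libraries, and Sema6d -0.0069 with the replicate block. From WT ESCs to EBs, Atp2b1 (0.25) gave -0.22 with the block, -0.098 without both C libraries (also with 2 groups) and -0.098 to 0.44 without single libraries, and Mcm3ap (0.30) gave -0.10, -0.18 and -0.18 to 0.55. The cause was not tested. One read was 3.29 and 2.78 normalized counts in the WT and KO ESC libraries C, and 0.54 to 0.91 in the other 8.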
